A study of Mus musculus with 14 samples.

Results

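The genes described here are 38 genes of the unfolded protein response and of the ATF4 stress response, chosen by their symbols from 55487 genes counted in caudal intervertebral discs of mice. They comprise 14 chaperones and folding factors of the endoplasmic reticulum (ER), 6 genes of ER-associated degradation, 7 stress sensors and transcription factors, and 11 targets of the transcription factor ATF4. RNA was taken from male mice on a C57BL/6 background in 4 groups, with 5 tail discs of each mouse pooled into 1 library. The db/db mice (n = 3) lack a working leptin receptor through a mutation of *Lepr* on both copies of the gene and become obese and diabetic, and the db/+ littermates (n = 3) carry it on 1 copy. Both were taken at 12 weeks of age. The STZ-HFD mice (n = 4) ate a high-fat diet for 4 to 6 weeks, received streptozotocin, a toxin of the insulin-producing beta cells, once at 100 mg/kg and stayed on the diet for 12 weeks more. Their controls (Con+Veh, n = 4) ate standard chow and were injected with the buffer. The labels and the study's methods give different fat contents for this diet, so none is stated here. The mutation is carried by every cell of a db/db mouse and is not limited to the disc. Each diabetic group was compared with its own control, and age, diet and genotype differ between the 2 cohorts.

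The ER folds the proteins that a cell secretes, and disc cells secrete much of the collagen and proteoglycan around them. When unfolded proteins build up, 3 sensors in the ER membrane respond. IRE1 (gene *Ern1*) splices the *Xbp1* mRNA, ATF6 is cut to release a transcription factor, and PERK (*Eif2ak3*) phosphorylates the initiation factor eIF2α, which lowers translation in general and raises that of ATF4. Spliced XBP1 and ATF6 act on genes of folding and degradation, many of which carry an ER stress response element in their promoters. ATF4, which is also raised by lack of amino acids and other stresses sensed by sister kinases of PERK, acts on genes of amino acid supply, redox balance and cell death. Several steps of both pathways, among them splicing, cleavage and phosphorylation, do not show in a count of a gene's mRNA.

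Promoter elements of these pathways are shown as a description of the members. The members were chosen as known genes of these pathways, many of which carry such elements. Their share among the members is therefore not an independent result. Windows of 250 bases before to 50 after the start site were taken from RefSeq on GRCm38.p6 and held 34 of the 38 members. *Manf*, *Derl1*, *Hyou1* and *Atf6* had none. The ER stress response element, searched as CCAAT, 9 bases of any kind and CCACG on both strands, stood in the windows of 9 of the 34 members and of 0.137% of all 27025 genes with a window. The 9 were *Hspa5*, *Hsp90b1*, *Calr*, *Canx*, *Pdia6*, *Dnajc3*, *Creld2*, *Syvn1* and *Derl3*, so 7 were chaperones or folding factors, 2 were degradation genes and none was an ATF4 target. Its variant, ATTGGNCCACG, stood in *Dnajb11* and *Herpud1* and in 0.0444% of all genes. Some of these elements are given here with 10 bases on each side and with the fixed letters in capitals.
Hspa5, chr2:34772015-34772053, + strand: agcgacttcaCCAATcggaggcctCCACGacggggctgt
Dnajc3, chr14:118937817-118937855, + strand: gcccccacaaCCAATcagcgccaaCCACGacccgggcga
Canx, chr11:50325790-50325828, - strand: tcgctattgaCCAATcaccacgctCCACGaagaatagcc
Pdia6, chr12:17266481-17266519, + strand: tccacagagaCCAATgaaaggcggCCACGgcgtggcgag
Creld2, chr15:88819510-88819548, + strand: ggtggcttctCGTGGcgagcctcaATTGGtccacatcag
Syvn1, chr19:6046522-6046560, + strand: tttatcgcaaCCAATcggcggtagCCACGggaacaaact
Herpud1, chr8:94386367-94386397, + strand: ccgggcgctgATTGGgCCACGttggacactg
In *Hspa5* the element lay 65 to 47 bases before the start site. In *Creld2* it was read on the strand opposite to the gene, so its letters appear as CGTGG and ATTGG.

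The core of the amino acid response element to which ATF4 and its C/EBP partners bind, searched as TGATGNAA on both strands, is short and stood in the windows of 5 of the 34 members and in 4.51% of all genes. It is shown for 4 of these, since *Chac1*, the member that passed the test below, shares it with genes that did not pass. The fifth, *Trib3*, carried it after its start site. *Herpud1* carried both this core and the ER stress variant. *Slc7a11* carried it on both strands, and the copy on the gene's strand is shown.
Chac1, chr2:119351039-119351066, + strand: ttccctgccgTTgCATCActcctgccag
Asns, chr6:7693215-7693242, - strand: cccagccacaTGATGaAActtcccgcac
Slc7a11, chr3:50443662-50443689, - strand: ctcatgtggcTGATGcAAacctggagaa
Herpud1, chr8:94386307-94386334, + strand: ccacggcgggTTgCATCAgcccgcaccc
In *Chac1* the core lay 193 to 186 bases before the start site, and the 250 bases upstream of that site read as follows, with the core in capitals.
Chac1, chr2:119350992-119351241, + strand: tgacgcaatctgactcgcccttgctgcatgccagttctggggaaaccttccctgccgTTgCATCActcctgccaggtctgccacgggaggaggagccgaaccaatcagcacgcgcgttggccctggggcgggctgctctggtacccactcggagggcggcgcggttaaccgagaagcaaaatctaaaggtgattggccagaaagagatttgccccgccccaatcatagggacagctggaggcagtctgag
A match in letters is a description of the sequence and does not show that a factor is bound there.

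Libraries held 16076908 to 58943169 counts, of which 28.1% to 60.2% fell on ribosomal RNA genes. Levels are given as CPM, counts scaled to a common library total with TMM factors, and at this depth 3 counts corresponded to 0.0431 to 0.163 CPM. Such floors cover counting error only. The library STZ-HFD 1 stood apart, with the lowest total but a count on 42626 genes against 25194 to 29924 in the others, and Con+Veh 1 received the lowest quality weight of the fit, 0.275, against 3.05 for Con+Veh 3. Con+Veh 1 was the lowest of its group in 20 of the 38 members and STZ-HFD 1 in 19. In the other cohort db/+ 3 was the lowest in 24 and db/db 2 in 23, and db/db 3 was the highest in 23. Nucleus pulposus markers summed to 550.1 to 4230.0 CPM in db/+ and 832 to 1068 CPM in db/db discs. They summed to 1883 to 4905 CPM in Con+Veh and 3454 to 7373 CPM in STZ-HFD discs. Most of each sum was *Car3*, at 519 to 3785 CPM in db/+ and 792 to 1002 CPM in db/db discs. *Car3* was at 1832 to 4442 CPM in Con+Veh and 3321 to 7036 CPM in STZ-HFD discs. The keratin *Krt19* was at 9.62 to 145 CPM in db/+ and 7.24 to 22.1 CPM in db/db discs. *Krt19* was at 14.01 to 109.6 CPM in Con+Veh and 42.6 to 112 CPM in STZ-HFD discs. Cartilage and annulus fibrosus markers such as *Acan* and *Col2a1* summed to 53011 to 77141 CPM in db/+ and 26534 to 60980 CPM in db/db discs. In Con+Veh discs the sum was 5032 to 19084 CPM, and in STZ-HFD discs 1789 to 3766 CPM. Skeletal muscle markers were also high, so the libraries also held skeletal muscle RNA. Their sums were 20450.1 to 25237 CPM in db/+ and 8791 to 18142 CPM in db/db discs. In Con+Veh discs they were 21404 to 47086 CPM, and in STZ-HFD discs 25763 to 68954 CPM. No listed marker of the 10 cell types looked up was at 0 in every library.

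A single member, *Chac1*, passed the test, and it rose in STZ-HFD discs. A gene passed at an adjusted p under 0.05 in limma's test on voom weights, adjusted over 16915 genes, which were those above 1 CPM in 3 or more libraries and held all 38 members. In db/db against db/+ discs, 0 of the 38 passed as higher and 0 as lower, where 1.42% and 0.508% of all genes did. In STZ-HFD against Con+Veh discs, 1 passed as higher and 0 as lower, against 1.65% and 1.8% of all genes. At an unadjusted p under 0.05, 3 members were higher and 2 lower in db/db discs, where 10.7% and 10.4% of all genes were. In STZ-HFD discs 3 were higher and 5 lower, against 8.34% and 9.54%. edgeR's quasi-likelihood test passed 0 members in either model, with 3 at an unadjusted p under 0.05 in each, and DESeq2 passed *Chac1* in STZ-HFD discs and 0 in db/db discs, also with 3 in each. edgeR passed 0 of all genes in db/db discs and 29 in STZ-HFD discs, where limma passed 326 and 584.

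A test that is not passed does not show that a level stayed as it was, so the intervals are given. In db/db discs the 95% interval of the log2 fold change lay between -1 and 1, which is less than a 2-fold change either way, for 22 of the 38 members and for 38.5% of all genes. In STZ-HFD discs it did so for 24 members and 39.7% of all genes. The median log2 fold change over the 38 members was -0.04 in db/db and -0.09 in STZ-HFD discs, and that over all genes tested was -0.04 in both. Libraries of the groups did not overlap for 5 members higher and 4 lower in db/db discs, where 14.1% and 11.7% of all genes did not. In STZ-HFD discs they did not overlap for *Chac1* alone, against 1.97% of all genes higher and 2.77% lower. The estimates pointed the same way in both models for 26 of the 38 members, of which 17 were negative, and for 54.1% of all genes, most of them within their errors. These are RNA levels of pooled tissue, in which fewer cells of a type and less RNA per cell cannot be told apart.

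**Figure D1:**
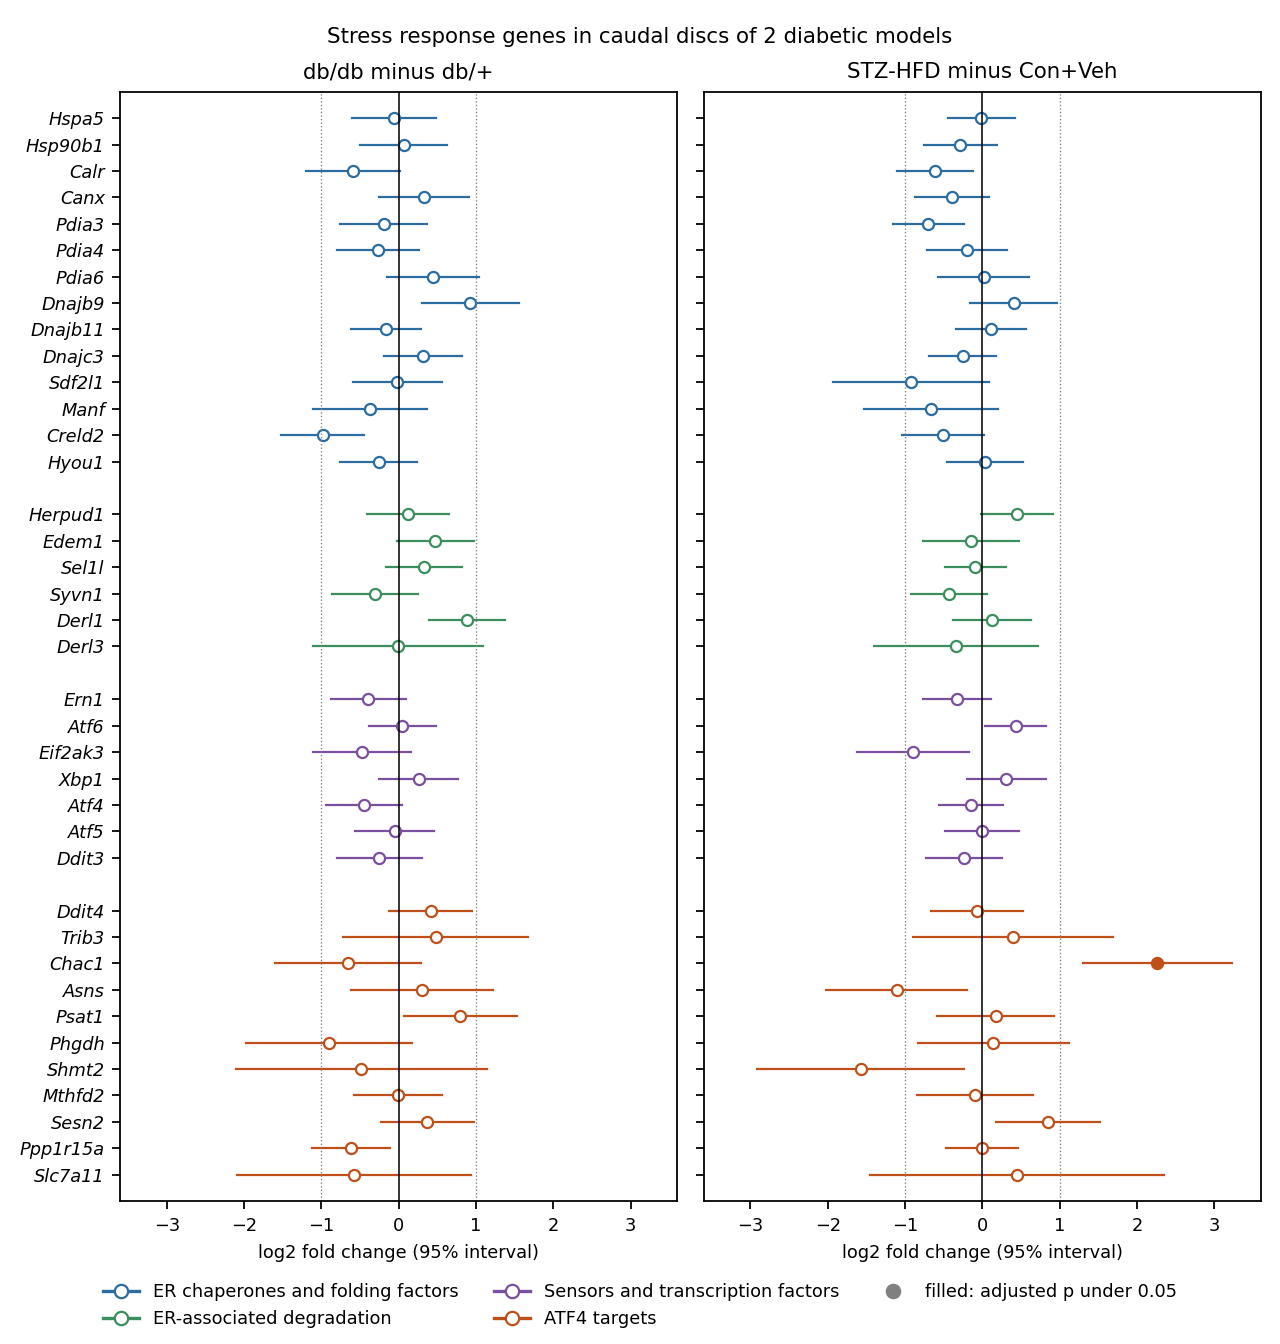
Log2 fold change (points, x axis) with its 95% interval (lines) of the 38 members in db/db minus db/+ discs (left) and STZ-HFD minus Con+Veh discs (right), by role, with dotted lines at -1 and 1. Only *Chac1* in STZ-HFD discs, at 2.26, is filled as past an adjusted p of 0.05, and the intervals of *Shmt2* and *Slc7a11* are among the widest.

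Of the 14 chaperones and folding factors 0 passed in either model. At an unadjusted p under 0.05, 1 was higher and 1 lower in db/db discs, against 10.7% and 10.4% of all genes. In STZ-HFD discs 0 were higher and 2 lower, against 8.34% and 9.54%. The 14 had a median log2 fold change of -0.11 in db/db and -0.27 in STZ-HFD discs, and 5 and 4 of their estimates were positive. *Hspa5* encodes BiP, the main HSP70 of the ER and the usual marker of an unfolded protein response. It was at 157, 188 and 114 CPM in db/+ and 161, 106 and 187 CPM in db/db discs, and at 113, 150.0, 144 and 153 CPM in Con+Veh and 89.4, 146, 168 and 139.7 CPM in STZ-HFD discs. The groups overlapped in both models. Its log2 fold change was -0.06 (SE 0.26, 95% interval -0.60 to 0.48, adjusted p = 0.92) in db/db and -0.02 (SE 0.21, 95% interval -0.45 to 0.42, adjusted p = 0.981) in STZ-HFD discs, so a 2-fold change lay outside both intervals. Their sign turned under other settings in both models, and with gene totals from the transcript estimates the value in STZ-HFD discs was -0.54 (adjusted p = 0.587).

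*Hsp90b1*, the ER's HSP90, had a log2 fold change of 0.06 (SE 0.27) in db/db and -0.29 (SE 0.22) in STZ-HFD discs. *Calr* and *Canx*, the lectin chaperones that hold glycoproteins until they are folded, follow. For *Calr* the values were -0.59 (SE 0.29) and -0.62 (SE 0.23), and for *Canx* 0.32 (SE 0.28) and -0.40 (SE 0.23). The calreticulin levels were 106, 89.7, 168 and 179 CPM in Con+Veh and 79.02, 166, 90.9 and 104 CPM in STZ-HFD discs and overlapped. Among the protein disulphide isomerases, *Pdia4* and *Pdia6* lay within 0.44 of 0 in both models. *Pdia3*, which works with the lectin chaperones, was the chaperone nearest to the threshold in STZ-HFD discs. It and the members *Creld2*, *Derl1* and *Dnajb9* are given in full because their values lay near the threshold, a choice made after those values were seen. *Pdia3* was at 40.5, 46.9, 62.6 and 58.6 CPM in Con+Veh and 27.3, 29.7, 32.8 and 46.3 CPM in STZ-HFD discs, and the highest STZ-HFD library lay above the lowest control. The log2 fold change was -0.70 (SE 0.22, 95% interval -1.16 to -0.24, adjusted p = 0.0874), and -0.20 (SE 0.26) in db/db discs. With gene totals from the transcript estimates it was 0.33 in STZ-HFD discs, so its sign differed between the 2 ways of counting, and the gene overlaps *Catsper2* on the other strand.

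*Creld2*, an ER folding factor with thioredoxin-like activity that is induced by ER stress, and *Dnajb9*, the co-chaperone ERdj4 and a target of XBP1, differed in sign in db/db discs. *Creld2* was at 21.99, 19.96 and 13.6 CPM in db/+ and 10.1, 7.79 and 10.3 CPM in db/db discs, with no overlap. This was a log2 fold change of -0.98 (SE 0.25, 95% interval -1.52 to -0.45, adjusted p = 0.0537). Without Con+Veh 2, Con+Veh 3 or STZ-HFD 2, which share the estimate of the spread, it passed (adjusted p = 0.0451, 0.0491 and 0.0372), and over the alternatives its adjusted p was 0.00263 to 0.279. In STZ-HFD discs it was -0.51 (SE 0.25), and the groups overlapped. *Dnajb9* was at 17.8, 12.2 and 13.7 CPM in db/+ and 26.4, 21.9 and 34.6 CPM in db/db discs, again with no overlap, but in the other direction. The estimate was 0.93 (SE 0.30, 95% interval 0.30 to 1.55, adjusted p = 0.0979). *Dnajc3*, which holds back PERK and helps BiP, also had no overlap in db/db discs, at a log2 fold change of 0.31 (SE 0.24). In db/db discs fold changes across all genes ran with GC content, at a Spearman rho of -0.43 over 16899 genes (a correlation across genes, which do not count as replicates). With each library's trend on GC content removed, the value was -0.69 for *Creld2* and 0.62 for *Dnajb9*, and neither passed. The GC content, pooled over a gene's annotated transcripts, is 54.8% in *Creld2* and 41.8% in *Dnajb9*.

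The remaining folding factors had log2 fold changes of -0.37 to -0.02 in db/db and -0.93 to 0.11 in STZ-HFD discs. They are *Dnajb11*, a co-chaperone of BiP, *Sdf2l1*, which works with *Dnajb11*, *Manf*, a secreted survival factor of stressed cells, and *Hyou1*, the nucleotide exchange factor of BiP. *Sdf2l1* was at 0.734, 2.22, 2.44 and 2.12 CPM in Con+Veh and 2.10, 1.27, 0.870 and 1.19 CPM in STZ-HFD discs, with its lowest value of all in Con+Veh 1. The estimate for STZ-HFD discs was -0.93 (SE 0.48, 95% interval -1.94 to 0.09, adjusted p = 0.325). *Manf* was at 1.33, 6.61, 6.77 and 7.77 CPM in Con+Veh discs, again with Con+Veh 1 far below the others, and at 5.55, 2.61, 2.52 and 6.78 CPM in STZ-HFD discs. *Hyou1* stood out in STZ-HFD 2, at 17.6 CPM, while the other 3 STZ-HFD libraries held 8.96 to 9.81 CPM.

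**Figure D2:**
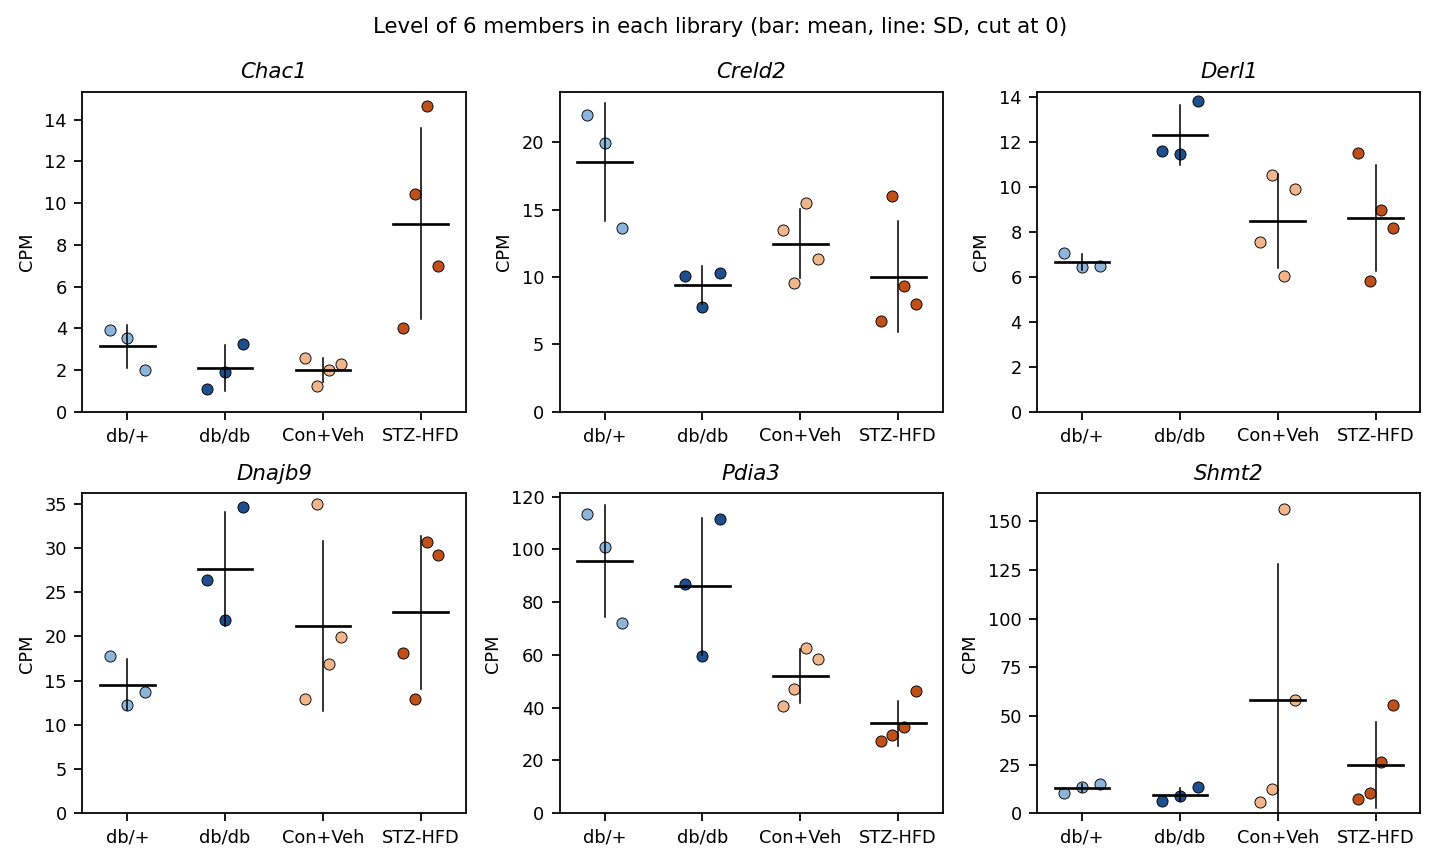
Level in CPM (y axis, linear from 0) of 6 members in each library (points), with the mean (bar) and SD (line) of each group. *Chac1* is higher in all 4 STZ-HFD libraries than in any Con+Veh library, *Creld2*, *Derl1* and *Dnajb9* separate db/db from db/+ without passing the test, *Pdia3* overlaps between STZ-HFD and Con+Veh, and *Shmt2* spans 5.57 to 157 CPM within Con+Veh.

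The genes of ER-associated degradation take misfolded proteins back to the cytosol, and 0 of 6 passed in either model. At an unadjusted p under 0.05, 1 was higher in db/db and 0 in STZ-HFD discs, against 10.7% and 8.34% of all genes. None was lower, against 10.4% and 9.54%. The median log2 fold change of the 6 was 0.23 in db/db and -0.12 in STZ-HFD discs. *Derl1*, part of the membrane channel through which proteins leave the ER, was at 7.06, 6.45 and 6.47 CPM in db/+ and 11.6, 11.5 and 13.8 CPM in db/db discs. Every db/db library was above every db/+ library. The log2 fold change of *Derl1* was 0.88 (SE 0.23, 95% interval 0.39 to 1.37, adjusted p = 0.0555), and with the GC trend removed it was 0.96 (adjusted p = 0.0506). Without the same 3 libraries it passed too (adjusted p = 0.0493, 0.0422 and 0.0455), and over the alternatives its adjusted p was 0.00829 to 0.278. In STZ-HFD discs it was 0.13 (SE 0.24). The difference between the models was 0.76 (SE 0.33, 95% interval 0.05 to 1.46, adjusted p = 0.247), which did not pass. *Edem1*, a lectin that picks glycoproteins for degradation, and *Sel1l*, the scaffold of the ubiquitin ligase, also did not overlap in db/db discs, with log2 fold changes of 0.47 (SE 0.24) and 0.33 (SE 0.23). *Edem1* was at 10.9, 9.53 and 8.18 CPM in db/+ and 12.4, 10.9 and 17.1 CPM in db/db discs, and the lowest db/db library lay just above the highest db/+ library. *Syvn1*, the ligase that *Sel1l* holds, had negative estimates of -0.31 (SE 0.26) and -0.43 (SE 0.23). *Herpud1*, which recruits the ligase complex and is a target of both pathways, was at 19.3, 30.5, 23.9 and 28.3 CPM in Con+Veh and 17.1, 37.6, 35.8 and 38.3 CPM in STZ-HFD discs. Of the STZ-HFD libraries, 3 were above every control and STZ-HFD 1 was below them all. The estimate there was 0.44 (SE 0.22, 95% interval -0.02 to 0.91, adjusted p = 0.302). *Derl3*, a relative of *Derl1* that secretory cells use, was low at 0.452 to 2.45 CPM in the 14 libraries.

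Of the 3 sensors and 4 transcription factors 0 passed in either model. All 7 estimates had the same sign in both, where 54.1% of all genes did, but those of *Xbp1*, and of *Atf6* in db/db discs, turned under other settings. At an unadjusted p under 0.05 there were 0 in db/db discs, against 10.7% of all genes higher and 10.4% lower. In STZ-HFD discs 1 was higher and 1 lower, against 8.34% and 9.54%. *Ern1* (IRE1) comes first. It was at 31.02, 29.6 and 29.7 CPM in db/+ and 20.7, 22.9 and 25.4 CPM in db/db discs, and at 43.9, 25.4, 24.6 and 23.8 CPM in Con+Veh and 11.3, 27.3, 16.4 and 24.5 CPM in STZ-HFD discs. The db/db libraries all lay below the db/+ libraries, and the log2 fold change was -0.39 (SE 0.23, 95% interval -0.87 to 0.09, adjusted p = 0.336) there and -0.32 (SE 0.21, 95% interval -0.76 to 0.11, adjusted p = 0.448) in STZ-HFD discs, where the groups overlapped. *Atf6* encodes the sensor that is itself a transcription factor. It was at 14.4, 18.6 and 16.03 CPM in db/+ and 19.2, 15.4 and 16.6 CPM in db/db discs, and at 14.3, 18.4, 18.2 and 15.9 CPM in Con+Veh and 14.7, 20.5, 22.9 and 27.6 CPM in STZ-HFD discs. In the STZ-HFD cohort STZ-HFD 1 was within the control range and the other 3 above it. Its log2 fold change was 0.05 (SE 0.20, 95% interval -0.38 to 0.48, adjusted p = 0.923) in db/db discs, with a sign that turned when the GC trend was removed (-0.14), and 0.43 (SE 0.19, 95% interval 0.03 to 0.82, adjusted p = 0.232) in STZ-HFD discs. *Eif2ak3* encodes PERK. It was at 7.98, 9.04 and 7.48 CPM in db/+ and 5.73, 4.31 and 8.47 CPM in db/db discs, and at 3.61, 5.63, 8.74 and 6.95 CPM in Con+Veh and 9.04, 7.50, 2.83 and 3.48 CPM in STZ-HFD discs. Both pairs of groups overlapped. For *Eif2ak3* the log2 fold change was -0.47 (SE 0.30, 95% interval -1.11 to 0.16, adjusted p = 0.379) in db/db and -0.90 (SE 0.34, 95% interval -1.63 to -0.18, adjusted p = 0.166) in STZ-HFD discs, where STZ-HFD 3 and 4 were below every control and STZ-HFD 1 was above every control. The size in STZ-HFD discs depended on the quality weights, since *Eif2ak3* had a log2 fold change of -0.20 in voom without them, -0.12 in edgeR and -0.10 in DESeq2.

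*Xbp1* encodes the transcription factor that IRE1 activates by splicing. It was at 16.99, 22.6 and 13.6 CPM in db/+ and 19.3, 18.2 and 27.2 CPM in db/db discs, and at 10.4, 18.4, 12.8 and 9.78 CPM in Con+Veh and 14.3, 11.7, 18.1 and 14.2 CPM in STZ-HFD discs. The groups overlapped in both models, at a log2 fold change of 0.26 (SE 0.24, 95% interval -0.25 to 0.77, adjusted p = 0.574) in db/db and 0.31 (SE 0.24, 95% interval -0.20 to 0.82, adjusted p = 0.548) in STZ-HFD discs. With gene totals from the transcript estimates both were negative, at -0.28 and -0.22, and of its transcripts only minor ones were listed there. The spliced and unspliced forms were therefore not analysed here, and the count of the gene does not tell them apart. *Atf4*, whose protein is set mainly by translation, follows. It was at 58.8, 57.1 and 36.9 CPM in db/+ and 47.2, 29.9 and 37.05 CPM in db/db discs, and at 61.2, 53.4, 65.0 and 60.6 CPM in Con+Veh and 34.9, 65.3, 54.1 and 61.6 CPM in STZ-HFD discs. Of the db/db libraries, 2 were within and 1 below the db/+ range. For *Atf4* the log2 fold change was -0.45 (SE 0.23, 95% interval -0.94 to 0.04, adjusted p = 0.278) in db/db and -0.15 (SE 0.20, 95% interval -0.56 to 0.27, adjusted p = 0.754) in STZ-HFD discs. *Ddit3* encodes CHOP, the factor that links lasting ER stress to cell death. It was at 3.67, 4.82 and 3.99 CPM in db/+ and 3.79, 4.01 and 2.84 CPM in db/db discs, and at 13.8, 6.69, 7.80 and 7.88 CPM in Con+Veh and 4.28, 7.32, 6.03 and 7.997 CPM in STZ-HFD discs. Con+Veh 1 was the highest of the 14 libraries. Its log2 fold change was -0.25 (SE 0.26, 95% interval -0.80 to 0.30, adjusted p = 0.615) in db/db and -0.24 (SE 0.23, 95% interval -0.73 to 0.25, adjusted p = 0.647) in STZ-HFD discs, and it shares its locus with *Mars1* on the other strand. *Atf5*, a relative of *Atf4*, had estimates of -0.05 (SE 0.24) and -0.01 (SE 0.23), and its interval lay between -1 and 1 in both models.

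**Figure D3:**
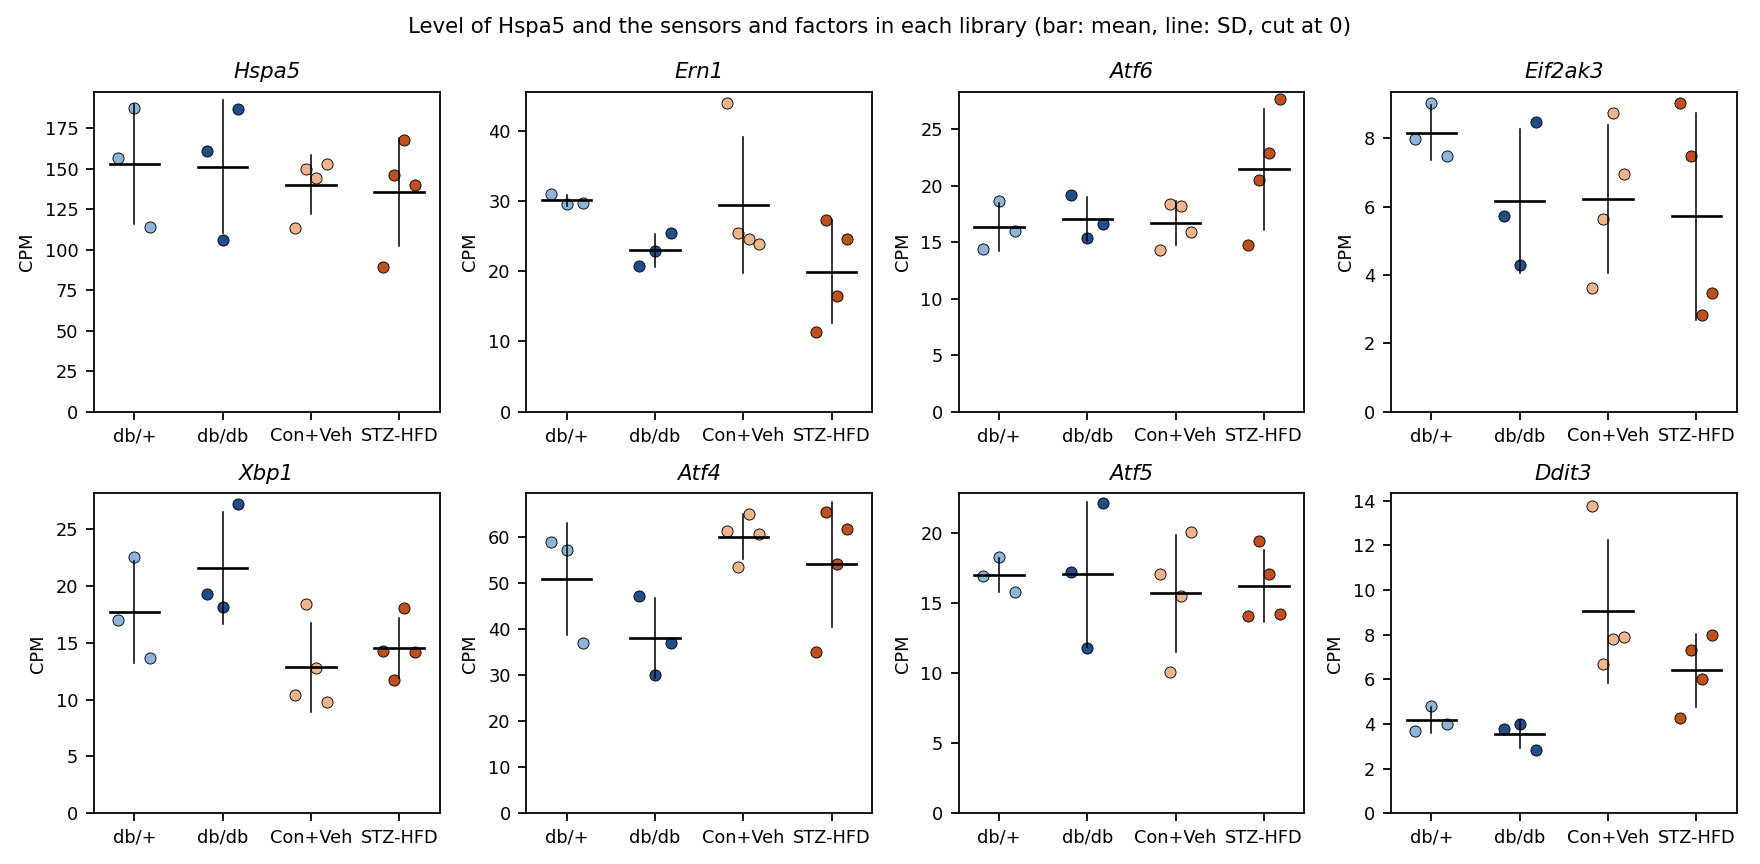
Level in CPM (y axis, linear from 0) of *Hspa5* and the 7 sensors and factors in each library (points), with the mean (bar) and SD (line) of each group. The groups of each model overlap for *Hspa5*, *Xbp1*, *Atf4* and *Ddit3*, and only *Ern1* in db/db against db/+ discs does not overlap.

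Of the 11 ATF4 targets, *Chac1* passed in STZ-HFD discs and 0 passed in db/db discs. At an unadjusted p under 0.05, 2 were higher (*Chac1*, *Sesn2*) and 2 lower (*Asns*, *Shmt2*) in STZ-HFD discs, against 8.34% and 9.54% of all genes. In db/db discs 1 was higher (*Psat1*) and 1 lower (*Ppp1r15a*), against 10.7% and 10.4%. The median log2 fold change of the 11 was 0.14 in STZ-HFD and -0.01 in db/db discs. *Chac1* (ENSMUSG00000027313, chromosome 2 from 119351229 to 119354381 of GRCm38, plus strand) encodes an enzyme that breaks down glutathione and is a target of the PERK and ATF4 branch. It was at 3.94, 3.51 and 1.97 CPM in db/+ and 1.10, 1.92 and 3.27 CPM in db/db discs, and at 2.55, 1.23, 1.97 and 2.28 CPM in Con+Veh and 3.99, 10.5, 14.7 and 6.99 CPM in STZ-HFD discs. The 4 STZ-HFD libraries were all above the 4 Con+Veh libraries, while the db/db libraries spread around and below those of db/+. Group means were 2.01 ± 0.573 CPM (SD, n = 4) and 9.02 ± 4.59 CPM (SD, n = 4). The log2 fold change was 2.26 (SE 0.46, 95% interval 1.30 to 3.22, adjusted p = 0.0154) in STZ-HFD discs and -0.66 (SE 0.45, 95% interval -1.60 to 0.29, adjusted p = 0.414) in db/db discs. The level was low, with 42 to 472 counts in a library. No other gene of the annotation overlaps its locus.

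The call on *Chac1* depended on the test and on single libraries, while its direction did not. Over the alternatives its log2 fold change in STZ-HFD discs stayed between 1.71 and 2.47, and its adjusted p between 0.000459 and 0.585. It did not pass in edgeR's test (adjusted p = 0.0579), in voom without quality weights (adjusted p = 0.108), with gene totals from the transcript estimates (adjusted p = 0.149), or without Con+Veh 3 (adjusted p = 0.23), Con+Veh 4 (adjusted p = 0.0981) or STZ-HFD 3 (adjusted p = 0.135). Nor did it pass with a block for the replicate numbers (adjusted p = 0.585), or with that block and the GC trend removed (adjusted p = 0.455). Over all genes, 584 passed in the main fit of this contrast, against 29 in edgeR's test and 19 in voom without quality weights. With the transcript estimates 56 did, and with the block 6. Without Con+Veh 3, Con+Veh 4 or STZ-HFD 3 the counts were 17, 18 and 18. *Chac1* passed in DESeq2 (adjusted p = 0.000459) and without STZ-HFD 1, the library that stood apart, at a log2 fold change of 2.43 (adjusted p = 0.00824). Other markers moved with the same contrast. Cartilage and annulus markers summed to 5032 to 19084 CPM in Con+Veh and 1789 to 3766 CPM in STZ-HFD discs, and 8 of 12 passed as lower. Skeletal muscle markers summed to 21404 to 47086 and 25763 to 68954 CPM, and 7 of 15 passed as higher. B and plasma cell markers summed to 62.95 to 378 and 39.03 to 73.6 CPM, and 3 of 9 tested passed as lower. Macrophage markers summed to 162 to 336 and 109.9 to 195 CPM, and 4 of 10 passed as lower. Adipocyte markers summed to 469 to 1026 and 947 to 1146 CPM, and 1 of 9 tested passed as higher. Of the markers tested, 6 of nucleus pulposus, 3 of neutrophils, 5 of erythroid cells and 2 of keratinocytes, 0 passed. The part of these markers in the level of *Chac1* was not tested.

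The genes of amino acid and one-carbon supply, on which ATF4 is best known to act, did not pass in either model. *Asns*, asparagine synthetase, was at 1.03, 3.39, 4.93 and 5.11 CPM in Con+Veh and 4.93, 1.72, 1.24 and 2.71 CPM in STZ-HFD discs. The groups overlapped, with Con+Veh 1 below every treated library, and the log2 fold change was -1.11 (SE 0.43, 95% interval -2.02 to -0.20, adjusted p = 0.177). *Psat1* and *Phgdh*, both of serine synthesis, had log2 fold changes of 0.80 (SE 0.35) and -0.91 (SE 0.51) in db/db discs, and of 0.17 (SE 0.36) and 0.14 (SE 0.46) in STZ-HFD discs. *Phgdh* did not overlap between db/db and db/+ discs, at 0.661, 0.904 and 0.440 CPM against 1.68, 1.22 and 0.917 CPM. *Mthfd2*, of the mitochondrial folate cycle, had an estimate of -0.01 (SE 0.27) in db/db and -0.10 (SE 0.36) in STZ-HFD discs. *Shmt2*, which feeds that cycle from serine, varied widely within groups. It was at 5.57, 12.3, 157 and 58.4 CPM in Con+Veh and 7.07, 10.2, 26.2 and 55.7 CPM in STZ-HFD discs, so libraries of 1 group differed by more than the groups did. Its log2 fold change was -1.57 (SE 0.64, 95% interval -2.91 to -0.23, adjusted p = 0.193), and it overlaps *Ndufa4l2* on the other strand.

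Targets that act back on stress signalling were also mixed. *Ppp1r15a* encodes GADD34, which takes the phosphate off eIF2α. It was at 21.8, 21.9 and 20.7 CPM in db/+ and 13.96, 11.5 and 17.3 CPM in db/db discs, with no overlap, at a log2 fold change of -0.61 (SE 0.24, 95% interval -1.12 to -0.11, adjusted p = 0.155). In STZ-HFD discs it was -0.01 (SE 0.22). *Sesn2* and *Ddit4*, both inhibitors of mTORC1, had estimates of 0.37 (SE 0.29) and 0.41 (SE 0.25) in db/db discs and of 0.85 (SE 0.32) and -0.07 (SE 0.28) in STZ-HFD discs. *Sesn2* was at 1.63, 7.25, 5.31 and 3.97 CPM in Con+Veh and 8.06, 6.50, 8.85 and 9.28 CPM in STZ-HFD discs, and the groups overlapped through Con+Veh 2. *Trib3*, a pseudokinase that restrains ATF4, and *Slc7a11*, the cystine importer that supplies glutathione, were low. *Trib3* ranged from 0.330 to 3.07 CPM over the 14 libraries. *Slc7a11* was at 2.28, 0.229, 0.611 and 0.109 CPM in Con+Veh and 8.47, 0.413, 0.497 and 0.357 CPM in STZ-HFD discs, with the highest values in Con+Veh 1 and STZ-HFD 1, and its intervals spanned more than 1 log2 unit on both sides of 0 in STZ-HFD discs.

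**Figure D4:**
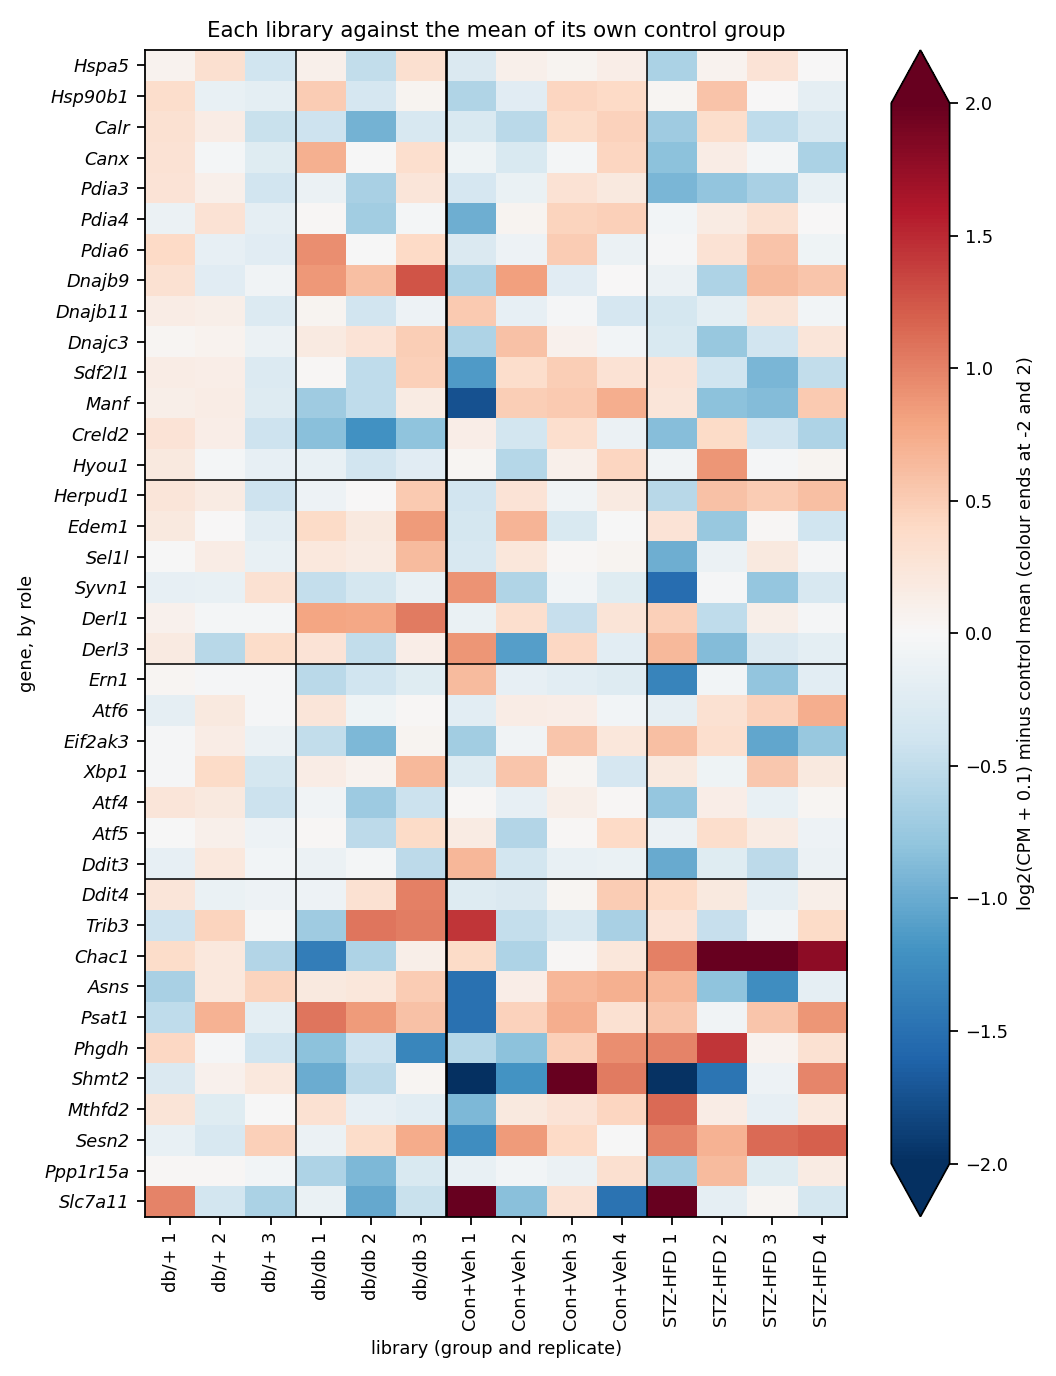
Log2(CPM + 0.1) of the 38 members (rows, by role) in each of the 14 libraries (columns) minus the mean of that library's own control group, with colour ending at -2 and 2. The row of *Chac1* is above the control mean in all STZ-HFD libraries, least so in STZ-HFD 1 at 1.00. Con+Veh 1 and STZ-HFD 1 hold many of the extreme values of the right side.

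Tested as a difference of the responses, db/db minus STZ-HFD, 1 of 38 members passed, against 1.77% of all genes, and 3 had an unadjusted p under 0.05, against 17.3%. The 1 was *Chac1*, at -2.92 (SE 0.64, 95% interval -4.27 to -1.57, adjusted p = 0.0321). DESeq2 also passed it (adjusted p = 0.0103), and edgeR's quasi-likelihood test passed 0 members (adjusted p = 0.146 for *Chac1*), with 2 at an unadjusted p under 0.05. *Chac1* also did not pass in voom without quality weights (adjusted p = 0.188) or with gene totals from the transcript estimates (adjusted p = 0.166). With a replicate block its adjusted p was 0.17, and 0.219 with the GC trend removed too. It did not pass without both libraries whose names end in RIP, Con+Veh 2 and STZ-HFD 4 (adjusted p = 0.0529), and it was lost on leaving out any of 8 single libraries, db/+ 1, db/+ 2, db/db 1, db/db 2, Con+Veh 3, Con+Veh 4, STZ-HFD 2 or STZ-HFD 3 (adjusted p = 0.0567 to 0.153). The other 2 at that unadjusted p were *Derl1* and *Asns*, at 0.76 (SE 0.33) and 1.41 (SE 0.61). The cohorts also differ in age, diet and control, which cannot be told apart from the model.

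Compared per length, as CPM per kb of exon, *Calr*, *Canx* and *Hspa5* were the 3 highest members in every group. Their means were 67.97, 30.4 and 36.1 in db/+ and 47.1, 53.02 and 33.1 in Con+Veh discs, and the ranges of neighbours over the libraries overlapped. *Atf4* came next in Con+Veh discs at 25.5, and *Pdia3* came next in db/+ discs at 30.4. The sensors were far lower, with *Ern1* at 3.69, *Atf6* at 1.77 and *Eif2ak3* at 1.36 in db/+ discs. *Chac1* stood at 1.92, 1.28 and 1.23 in db/+, db/db and Con+Veh discs and at 5.51 in STZ-HFD discs, which placed it near the ER disulphide isomerase *Pdia4* (5.19) in that group. *Slc7a11* was the lowest member in every group, at 0.0303 to 0.175.

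**Figure D5:**
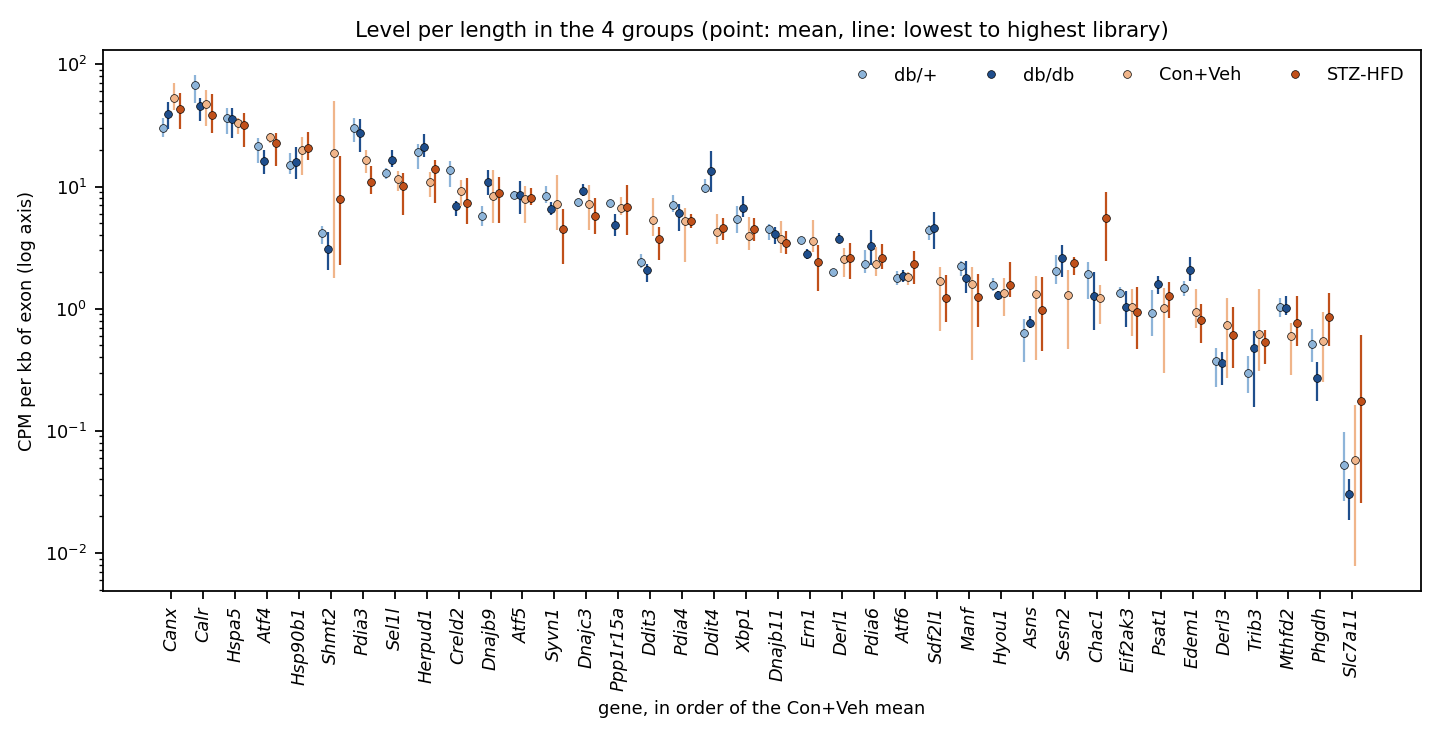
Mean CPM per kb of exon (y axis, log scale) of each member in the 4 groups (points), with the lowest and highest library (lines), in order of the Con+Veh mean. The chaperones *Canx*, *Calr* and *Hspa5* lead and *Slc7a11* is last, and *Shmt2* has one of the longest lines.

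Other genes of these pathways were read from lists that hold none of the members. Among 27 further ER folding and redox genes, 4 were higher and 4 lower in db/db discs at an unadjusted p under 0.05 (10.7% and 10.4% of all genes). In STZ-HFD discs 1 was higher and 4 lower (8.34% and 9.54% of all genes). After adjustment 1 passed as higher in db/db and 1 as lower in STZ-HFD discs, where 1.42% and 1.8% of all genes did, and none in edgeR or DESeq2. The first was *Hspa13*, an HSP70 of microsomes, at 7.51, 6.40 and 4.87 CPM in db/+ and 14.4, 10.4 and 15.1 CPM in db/db discs, with a log2 fold change of 1.08 (SE 0.27, adjusted p = 0.045). The second was *Dnajc1*, a J-domain protein of the ER membrane, at 31.7, 34.4, 179 and 153 CPM in Con+Veh and 19.4, 29.3, 56.8 and 51.1 CPM in STZ-HFD discs, with -1.64 (SE 0.36, adjusted p = 0.0208). Its control libraries fell into a low and a high pair, like those of *Shmt2*, and with gene totals from the transcript estimates its value was -0.26. Among 24 further degradation genes 0 passed in either model, while in STZ-HFD discs DESeq2 passed 1 and edgeR 0. At an unadjusted p under 0.05, 1 was higher and 4 lower in db/db discs, against 10.7% and 10.4% of all genes. In STZ-HFD discs 2 were higher and 2 lower, against 8.34% and 9.54%. Among 24 tested sensors and regulators, 2 were higher and 4 lower in db/db discs at an unadjusted p under 0.05 (10.7% and 10.4% of all genes). In STZ-HFD discs 1 was higher and 2 lower (8.34% and 9.54% of all genes). After adjustment 1 passed, as lower in STZ-HFD discs, where 1.8% of all genes did. That was *Creb3l1* (OASIS), a cleaved ER factor that acts on collagen genes in bone, at 22.2, 11.3, 34.8 and 23.1 CPM in Con+Veh and 11.02, 22.3, 7.27 and 10.1 CPM in STZ-HFD discs, with -1.40 (SE 0.33, adjusted p = 0.0282). *Creb3l1* did not pass in edgeR (-0.85, adjusted p = 0.337), in DESeq2 (-0.83, adjusted p = 0.253), in voom without quality weights (-0.85, adjusted p = 0.436) and in 14 of 28 alternatives in all. The groups overlapped, and osteoblast markers summed to 150.4 to 409 CPM in Con+Veh and 115 to 269.9 CPM in STZ-HFD discs, 2 of 10 passing as lower.

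Among 25 further ATF4 targets tested, 2 were higher and 5 lower in STZ-HFD discs at an unadjusted p under 0.05 (8.34% and 9.54% of all genes). In db/db discs 2 were higher and 1 lower (10.7% and 10.4% of all genes). After adjustment 1 passed, and it fell in STZ-HFD discs, where 1.8% of all genes passed as lower. *Slc1a4*, a carrier of serine, alanine and other small neutral amino acids, was at 14.2, 7.48, 15.8 and 18.6 CPM in Con+Veh and 4.03, 4.23, 4.88 and 4.28 CPM in STZ-HFD discs. The groups did not overlap, and the log2 fold change was -1.77 (SE 0.36, adjusted p = 0.0169), opposite in sign to that of *Chac1*. DESeq2 passed it too, and edgeR did not (adjusted p = 0.0539), within a range of 0.000617 to 0.474 over 28 alternatives. In the difference between the models *Rab32*, a GTPase of membrane traffic, passed at 1.63 (SE 0.38, adjusted p = 0.039). It was at 3.67, 2.12 and 2.01 CPM in db/+ and 4.64, 4.71 and 4.78 CPM in db/db discs, and at 5.49, 4.13, 4.04 and 4.51 CPM in Con+Veh and 3.62, 2.61, 2.61 and 2.50 CPM in STZ-HFD discs. Of 20 cytosolic aminoacyl-tRNA synthetases, which load amino acids onto tRNAs and are also induced by ATF4, 0 passed in either model. None passed there in edgeR or DESeq2. At an unadjusted p under 0.05, 2 were higher and 5 lower in db/db discs (10.7% and 10.4% of all genes). In STZ-HFD discs 1 was higher and 1 lower (8.34% and 9.54% of all genes). *Sars*, for serine, passed in the difference, at -1.61 (SE 0.38, adjusted p = 0.0396). It was at 16.9, 22.03 and 12.6 CPM in db/+ and 8.34, 6.92 and 9.40 CPM in db/db discs, and at 7.69, 12.8, 17.01 and 11.7 CPM in Con+Veh and 9.99, 25.2, 22.7 and 19.7 CPM in STZ-HFD discs. With gene totals from the transcript estimates its difference was 0.92, so its sign turned. *Rab32* did not pass in 19 and *Sars* in 18 of 27 alternatives.

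The heat shock genes of the cytosol, which answer to unfolded proteins outside the ER, were read beside them. Of 17, 2 passed in db/db discs, both as higher, where 1.42% of all genes did. *Hspa1a*, an inducible HSP70, was at 7.28, 5.27 and 6.20 CPM in db/+ and 12.9, 12.03 and 16.8 CPM in db/db discs, with a log2 fold change of 1.17 (SE 0.27, adjusted p = 0.0376). *Chordc1*, a partner of HSP90, was at 11.3, 13.03 and 18.9 CPM in db/+ and 40.4, 38.5 and 29.05 CPM in db/db discs, with 1.35 (SE 0.34, adjusted p = 0.0464). Neither gene overlapped between these groups. *Hspa1a* is nearly identical to *Hspa1b*, so its share of their common reads is uncertain. In STZ-HFD discs 0 of 17 passed. At an unadjusted p under 0.05, 2 were higher and 0 lower there, against 8.34% and 9.54% of all genes. Whether the models differ in these genes did not pass for any of the 17. edgeR and DESeq2 passed 0 of the 17 in either model. With the GC trend removed, *Hspa1a* still passed (1.59, adjusted p = 0.0188), while *Chordc1* (0.99, adjusted p = 0.106) and the ER gene *Hspa13* (0.77, adjusted p = 0.159) did not. Leaving out any 1 of the 6 libraries of the db/db and db/+ groups left neither of these genes past the threshold, nor *Hspa13*. In db/db discs muscle markers summed to 8791 to 18142 CPM against 20450.1 to 25237 CPM in db/+ discs, with 2 of 15 passing as lower, and 4 of 9 tested adipocyte markers passed as higher. Their part in these levels was not tested.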

How the data were processed

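Caudal disc RNA of 14 mice was amplified with the SeqPlex kit before library preparation. Per the labels and methods, the authors aligned reads with STAR to the Ensembl mouse genome (GRCm38) and deposited whole-number gene counts made by featureCounts, without normalization, and estimated counts per transcript from Salmon, which entered 1 alternative here, summed per gene and rounded. Strand use in counting is not given in the sources used here, so reads of the 8 members that overlap a protein-coding gene on the other strand may be shared. Of 55774 lines 287 repeated a gene with identical values and were used once. Positions and exon lengths came from GENCODE M21, which holds 55227 of the 55487 genes.

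Genes above 1 CPM in at least 3 libraries (16915) were fitted with limma 3.58.1 (voomWithQualityWeights, TMM factors of edgeR 4.0.16, R 4.3.3) with a mean per group and Benjamini-Hochberg adjustment over these genes, on all 14 libraries. The methods name this tool, so edgeR's quasi-likelihood test and DESeq2 1.42.0 were alternatives. The other alternatives were fits without weights, with other scaling, filters, blocks, GC correction or counting, without ribosomal RNA genes, and without single libraries. Leaving out STZ-HFD 1 together with GC correction was added after the data were seen. Scripts were tested on simulated data. By the labels every library came from another mouse, and chi-square per degree of freedom over 18 replicate pairs was 47.2 to 499.2.

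The members and the gene and marker lists were chosen with earlier results of these data known. Values in every library are given for each member that passed and for Hspa5, Ern1, Atf6, Eif2ak3, Xbp1, Atf4 and Ddit3, and from each further list for up to 2 passing genes per contrast with the largest change. Protein sequences were not analysed here.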

Additional observations from a re-analysis of the deposited data

Results flagged for a closer look

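In the groups of 4 mice, each member was looked at for a library far from the other 3, by Dixon's criterion at 95% on the gap to the nearest library over the group's range of log2 values. Of 76 sets of values 7 had one, and chance gives about 1 in 20. Con+Veh 1 gave 4 of them. It was lowest for Sdf2l1 at 0.734 CPM (others 2.12 to 2.44) and for Manf at 1.33 CPM (others 6.61 to 7.77). It was highest for Ern1 at 43.9 CPM (others 23.8 to 25.4) and for Trib3 at 3.07 CPM (others 0.652 to 0.846). STZ-HFD 1 was lowest for Herpud1 at 17.1 CPM (others 35.8 to 38.3) and highest for Slc7a11 at 8.47 CPM (others 0.357 to 0.497). STZ-HFD 2 was highest for Hyou1 at 17.6 CPM (others 8.96 to 9.81). These 3 libraries had quality weights of 0.275, 0.379 and 0.688 in the fit.

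The response of Chac1 passed as different between the models in the main fit, at a log2 difference of -2.92 for db/db minus STZ-HFD (adjusted p = 0.0321). It did not pass in edgeR's test (adjusted p = 0.146), in voom without quality weights (adjusted p = 0.188) or with transcript estimates (adjusted p = 0.166). It was also lost with a replicate block and on leaving out some single libraries. Chac1 was higher in 4 of 4 STZ-HFD libraries than in every Con+Veh library, while the db/db and db/+ libraries overlapped.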

How the results depend on the processing

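Over 28 refits and a minimum log2 fold change of 1, the counts of members that passed stayed the same in 109 cases and moved in 34. They moved most often for the difference between the models, and the minimum fold change kept all. Depth limits the low members, such as Slc7a11 with 2 to 206 counts in a library. In db/db discs as higher, 1 member (Derl1) passed with no filter on low counts, 1 (Derl1) with each model fitted alone, and 0 to 1 on leaving out single libraries. As lower, 0 to 1 (Creld2) passed on leaving out single libraries. Con+Veh 2, Con+Veh 3 and STZ-HFD 2 were those without which these 2 passed. In STZ-HFD discs as higher and in the difference between the models, 0 passed in edgeR's quasi-likelihood test, in voom without quality weights and with transcript estimates, and 0 to 1 on leaving out single libraries. The difference also gave 0 without both RIP libraries, and it cannot be had with each model fitted alone. As lower in STZ-HFD discs the count was 0 under every alternative run. The cause of these changes was not tested.

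Whether the replicate numbers of the labels pair the mice is not known. Deviations of same-numbered libraries from their group means correlated at -0.28 to 0.19 in the db/db cohort. In the STZ-HFD cohort they correlated at -0.26 to -0.04. With so few pairs these values cannot decide it. With a replicate block, 3 members passed as higher (Dnajb9, Derl1, Psat1) and 2 as lower (Creld2, Ppp1r15a) in db/db discs. Of all 16915 genes, 1742 and 1669 did. In STZ-HFD discs and in the difference 0 members passed, where 6 and 2 of all genes did. Without the block 326 of all genes passed in db/db discs and 584 in STZ-HFD discs. With the block and the GC trend removed, 2 members passed as higher (Derl1, Psat1) and 2 as lower (Creld2, Slc7a11) in db/db discs. Of all genes 1332 and 811 did there, and again 0 members passed elsewhere.

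With transcript estimates the median log2 fold change of the degradation genes was 0.65 in db/db and -0.24 in STZ-HFD discs, that of the sensors and factors in STZ-HFD discs -0.40, and that of the ATF4 targets in db/db discs 0.37. The degradation median in STZ-HFD discs was -0.28 to -0.068 on leaving out single libraries. The median of the sensors and factors in db/db discs was -0.031 with GC correction and replicate block, and that of the ATF4 targets there 0.18 with GC correction and without STZ-HFD 1.

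Estimates whose sign turned had not passed, except that of Sars. For Hspa5 in db/db discs the value was 0.0027 in DESeq2 and 0.023 with the replicate block, and -0.23 to 0.17 on leaving out single libraries. In STZ-HFD discs it was 0.010 with RLE size factors, 0.080 with no filter, 0.0059 with the block, 0.051 without STZ-HFD 1 and with GC correction, 0.020 with each model alone, and -0.16 to 0.073 on leaving out single libraries. For Atf6 in db/db discs it was -0.14 with GC correction, -0.011 with the block too, -0.16 without STZ-HFD 1 as well, and -0.039 to 0.15 on leaving out single libraries. With transcript estimates it was -0.28 and -0.22 for Xbp1 in db/db and STZ-HFD discs, 0.027 and 0.33 for Pdia3, and 0.92 for the difference of Sars. For Derl1 in STZ-HFD discs it was -0.018 without quality weights and -0.22 to 0.21 on leaving out single libraries. For Pdia3 in db/db discs it was -0.41 to 0.037.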
